A study of Mus musculus with 6 samples.

Results

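The genes examined here encode the enzymes that attach a single ubiquitin to histone H2B in mammals. They were chosen by name, for their role in this reaction, as the ligase pair Rnf40 and Rnf20, the ubiquitin-conjugating (E2) enzymes Ube2a and Ube2b, and the adaptor Wac, and make up 5 of the 29955 genes in the deposited table. RNA-seq was performed on mouse embryonic fibroblasts (MEFs), the primary cells that grow out of dissociated mouse embryos, at passage 3, with 3 libraries from Rnf40+/+ cells and 3 libraries from Rnf40-/- cells. The Rnf40-/- MEFs came from embryos homozygous for an Rnf40 allele with loxP sites around exons 3 and 4 and carrying Rosa26-CreERT2, a ubiquitously expressed Cre recombinase that 4-hydroxytamoxifen (4-OHT) activates. They were cultured with 250 nM 4-OHT for 5 days and for 3 more days without it. The sources used here do not state whether the Rnf40+/+ cells for RNA-seq held floxed alleles, carried CreERT2 or received 4-OHT, so that the deletion and the treatment cannot be told apart. They also do not say whether replicates came from separate embryos, and the p-values therefore measure the spread between these libraries, which may be technical.

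Ubiquitin reaches its substrates through a chain of enzymes in which an E1 activates it, an E2 carries it and an E3 ligase selects the substrate. For histone H2B the E3 is a heterodimer of the RING proteins RNF20 and RNF40, which stabilize each other, and the E2 is a mammalian homologue of yeast Rad6, either UBE2A or UBE2B. WAC tethers the ligase to RNA polymerase II, and the PAF1 complex brings the reaction to transcribed genes, where H2Bub1, the monoubiquitinated form of H2B, stimulates methylation of histone H3 by the SET1 complexes and DOT1L. The mark is short-lived because ubiquitin-specific proteases remove it again.

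The segment deleted from Rnf40 is printed because it sets what the Rnf40 reads can and cannot show. In mm9, where Rnf40 (ENSMUSG00000030816) is annotated at chr7:134732212-134747119 in plus orientation, both floxed exons are coding. Exon 3 (chr7:134733026-134733193) begins after 44 whole codons of 1000. Exon 4 (chr7:134733271-134733412) ends within a codon that exon 5 completes, and its split base is in capitals below.

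exon 3: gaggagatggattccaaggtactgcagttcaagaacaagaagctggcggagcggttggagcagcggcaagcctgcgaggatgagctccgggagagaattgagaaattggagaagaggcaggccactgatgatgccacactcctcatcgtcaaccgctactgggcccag

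exon 4: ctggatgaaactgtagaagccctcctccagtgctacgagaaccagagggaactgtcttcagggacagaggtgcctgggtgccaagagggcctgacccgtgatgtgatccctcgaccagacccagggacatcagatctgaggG

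The 2 exons hold 310 nucleotides, which leaves 1 base over when divided into codons. A transcript spliced from exon 2 to exon 5 would therefore change its reading frame after 4.4% of the codons of RNF40, and would still hold the other 18 of 20 exons. Since the deposited table holds 1 value per gene and none per exon, these data do not show whether Rnf40 reads came from such a transcript.

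Rnf40, the deleted gene, was strongly decreased in every Rnf40-/- library, but reads of the gene were still detected. Its normalized count, the number of reads on the gene divided by 1 size factor per library, stood at 1278, 1195 and 1096 for replicates 1 to 3 of Rnf40+/+, and at 439, 519 and 487 for those of Rnf40-/-. The highest Rnf40-/- value lay well under the lowest Rnf40+/+ value. The mean fell from 1190 ± 91.2 to 482 ± 39.9 (SD, n = 3 each), which left 40.5% of the Rnf40+/+ level. The log2 fold change was −1.30 (SE 0.09, 95% interval −1.50 to −1.11, adjusted p = 4.25e-07 by limma with Benjamini-Hochberg adjustment over all 16378 genes tested). A larger fall was measured for 567 of those genes, or 3.46%. Cells that kept an intact allele and a lower level of RNA in every cell cannot be told apart in these bulk libraries, here or for the genes that follow.

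Rnf20, which encodes the other RING subunit of the heterodimer, changed in the opposite direction. Rnf20 (ENSMUSG00000028309, chr4:49644878-49669759, plus strand, mm9) had normalized counts of 1619, 1777 and 1437 in Rnf40+/+ MEFs and of 2090, 2136 and 2098 in Rnf40-/- MEFs. All Rnf40-/- libraries were above all Rnf40+/+ libraries. The mean rose by 30.9%, from 1611 ± 171 to 2108 ± 24.7, with a log2 fold change of 0.39 (SE 0.08, 95% interval 0.22 to 0.57, limma adjusted p = 0.00152). The Rnf40-/- libraries lay close together, with a coefficient of variation of 1.17% against 10.6% in Rnf40+/+. This was not particular to Rnf20, since Ube2a had 1.58% against 10.6%, and 3 libraries give only a rough spread.

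Ube2a and Ube2b, the E2 enzymes that load ubiquitin for the ligase, were both higher in Rnf40-/- MEFs, by less than Rnf20. Ube2a (ENSMUSG00000016308, chrX:34414353-34424210, plus strand, mm9) was measured at 1071, 1075 and 888 normalized counts in Rnf40+/+ and at 1273, 1256 and 1233 in Rnf40-/- libraries. Its groups did not overlap, and Rnf40+/+ replicate 3 was the lowest of the 6 libraries. The mean rose by 24.0% from 1011 ± 107 to 1254 ± 19.8, a log2 fold change of 0.32 (SE 0.08, 95% interval 0.13 to 0.50, limma adjusted p = 0.00836). Ube2b (ENSMUSG00000020390, chr11:51798999-51814264, minus strand, mm9) was measured at 3684, 3735 and 3546 in Rnf40+/+ and at 4275, 4285 and 4157 in Rnf40-/- libraries. These groups were also separate, with a gap that was wider than the range within either of them. The mean rose from 3655 ± 98.2 to 4239 ± 71.2, a log2 fold change of 0.21 (SE 0.06, 95% interval 0.086 to 0.34, limma adjusted p = 0.00999). The call of Ube2b was lost without Rnf40-/- replicate 1, where the log2 fold change was 0.21 and the limma adjusted p 0.0562.

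Wac, which encodes the adaptor between the ligase and RNA polymerase II, showed no difference beyond the spread of the libraries. Wac (ENSMUSG00000024283, chr18:7868830-7973545, plus strand, mm9) had normalized counts of 2276, 2059 and 1901 in Rnf40+/+ and of 2123, 2037 and 1837 in Rnf40-/- libraries. The groups overlapped over most of their range. The means were 2079 ± 188 and 1999 ± 147, and the log2 fold change was −0.06 (SE 0.08, 95% interval −0.23 to 0.12, limma adjusted p = 0.608). The sign depended on single libraries, since the log2 fold change was 0.012 without Rnf40+/+ replicate 1 and 0.0045 without Rnf40-/- replicate 3.

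Thus 3 of the 5 genes were higher, 1 was lower and 1 did not pass the test. Among all genes tested, 47.4% passed, 23.3% as higher and 24.1% as lower in Rnf40-/- MEFs, so that passing the test was common in this comparison. The groups of 4 members did not overlap, as was the case for 56.5% of all genes tested (27.8% higher and 28.7% lower). The rises were within the range of many other genes: 3375 genes (20.6%) rose more than Rnf20, 4144 (25.3%) more than Ube2a and 5266 (32.2%) more than Ube2b. Rnf40+/+ replicate 3, which was also the deepest library, held the lowest Rnf40+/+ value of all 5 genes. Over all genes it differed most from the other Rnf40+/+ libraries, with a chi-square per gene of 26.9 and 24.1, against 7.87 between the others. This chi-square was taken on reads and also grows with depth. Without Rnf40+/+ replicate 3 the log2 fold changes were −1.36 for Rnf40, 0.31 for Rnf20, 0.22 for Ube2a, 0.19 for Ube2b and −0.12 for Wac, and the same 4 genes passed the test.

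**Figure D1:**
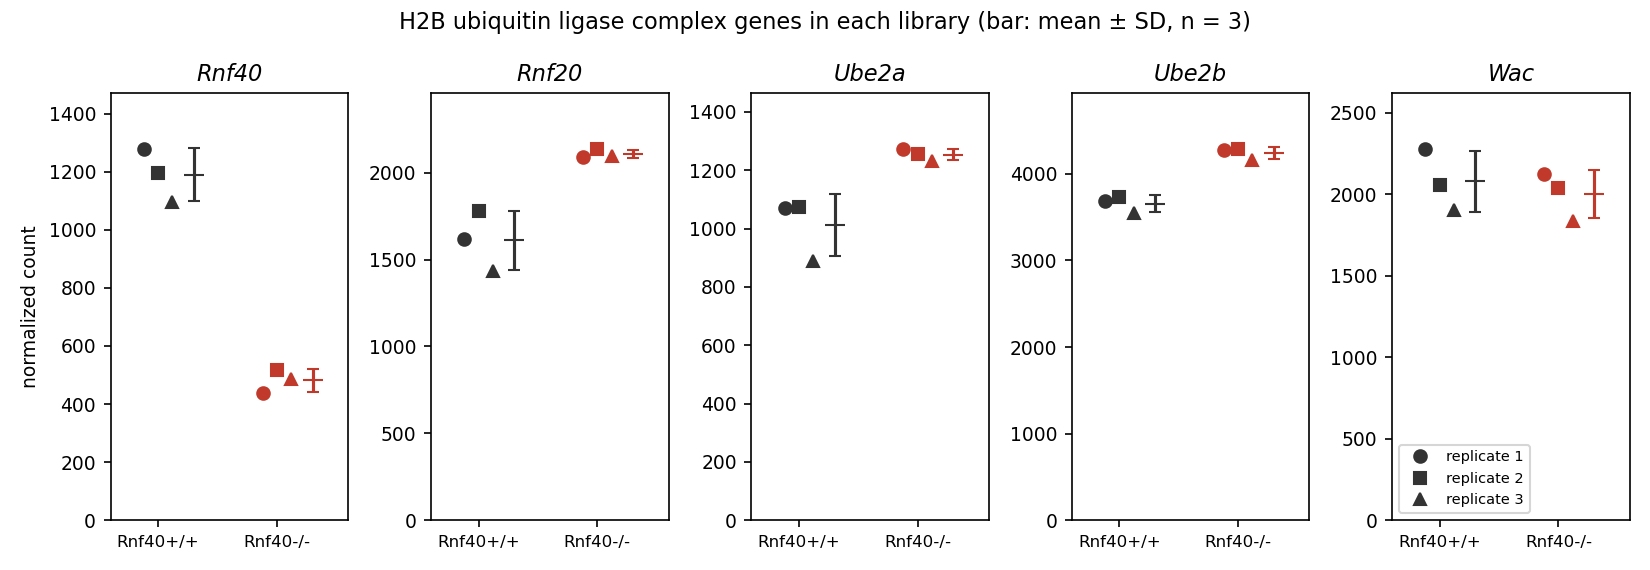
Normalized count (vertical axes, each starting at 0) of the 5 genes in the 3 Rnf40+/+ (black) and 3 Rnf40-/- (red) libraries. Symbols mark the replicate and the bars give the mean ± SD. Rnf40 falls to between 439 and 519, Rnf20, Ube2a and Ube2b lie above their Rnf40+/+ libraries, and the groups of Wac overlap.

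Each member was measured with 431 to 4440 reads per library. Libraries held between 17053436 and 26344170 reads on genes, with ranges that overlapped between genotypes, and a gene with 3 reads had a normalized count between 2.40 and 3.58. None of the 50-base stretches of the annotated transcripts of the members occurred in a transcript of any other annotated gene, which includes the paralogs Ube2a and Ube2b, so that reads of this length could be assigned to 1 gene. On the same strand, Ube2b overlaps the lincRNA Gm16953 and Wac the pseudogene Gm7502, and neither of these is listed in the deposited table. Other aspects of the cells differed between the genotypes as well. All 10 genes of a list of dividing-cell markers, such as Mki67 and Top2a, were lower, and their summed normalized count was 4366 to 5681 in Rnf40+/+ and 654 to 809 in Rnf40-/- libraries. Of 10 fibroblast markers 8 were lower and none was higher, with sums of 669465 to 741504 and of 400462 to 403413. Fn1 was the largest part of these sums, with means of 328300 and 210096. Among all genes tested, 24.1% were lower. The part of the dividing-cell and fibroblast genes in the changes of the members was not tested.

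Markers of other cell types had lower sums than the fibroblast markers, although the sums are not corrected for list size or gene length. The 8 macrophage markers summed to 5560 to 9476 in Rnf40+/+ and to 3570 to 3943 in Rnf40-/- libraries, with 2 higher and 2 lower. Lyz2, which made up most of these sums, fell from 5314 ± 1867 to 2264 ± 152, and Tyrobp was also lower. Ptprc and Cd14 were higher, and 4 did not pass. The summed endothelial markers were at 146 to 282 and at 234 to 333, with 3 of 5 tested higher and 1 lower. Among all genes tested, 23.3% were higher and 24.1% lower. Pecam1 and Cdh5 rose from low Rnf40+/+ means of 3.75 and 2.76 to 27.6 and 31.6, and Kdr rose from 27.4 to 84.5. Emcn, which had the highest Rnf40+/+ mean of the list, fell from 126 ± 37.7 to 55.3 ± 11.9, and Tek did not pass. For epithelial markers the sums were 33.7 to 107 and 39.7 to 64.2, and none of 3 tested passed. Of the skeletal muscle markers, Myod1 was at 0 in all libraries, and Myog, Myf5 and Ckm had at most 7, 3 and 2 reads. Both that were tested, Des and Acta1, were lower, and the sums of the list were 1710 to 4882 and 438 to 496. Whether such cells were present was not tested, and neither was their part in the values of the members.

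Between genes, levels were compared per kb of annotated exon. Ube2b was the most abundant of the 5, with 1719 ± 46.2 normalized counts per kb in Rnf40+/+ MEFs and 1994 ± 33.5 in Rnf40-/- MEFs. Ube2a came next with 609 ± 64.3 and 754 ± 11.9. The ligase and adaptor genes were expressed below the E2 genes, with Wac at 349 ± 31.6 and 335 ± 24.6 per kb. Rnf40 stood at 286 ± 22.0 in Rnf40+/+ and at 116 ± 9.60 in Rnf40-/- MEFs, and Rnf20 at 221 ± 23.4 and 289 ± 3.38. Among the 13965 tested genes with an annotated length, Rnf40 moved from percentile 71.6 of levels per kb in Rnf40+/+ to percentile 50.9 in Rnf40-/-, while Rnf20 moved from 65.3 to 72.3 and Ube2b was at 95.2 and 96.2.

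The order of the neighbouring genes in this ranking depended on the length used. Rnf20 has 11 annotated transcripts whose exons cover 7288 bases together, but its longest transcript has 4312 bases, and with this length its level in Rnf40+/+ was 374 per kb, above Rnf40, which has a single transcript of 4154 bases. With the combined exons, the ranges of Rnf40 (264 to 308 per kb) and Rnf20 (197 to 244) did not overlap in Rnf40+/+ libraries, and the range of Wac (319 to 382) lay above both. In Rnf40-/- libraries Rnf40 (106 to 125) was below all others with either length. Rnf20 (287 to 293) lay below Wac (308 to 356) with the combined exons and above it with the longest transcripts.

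The balance between the partners of each pair was followed as a ratio within each library. Per kb of combined exons, Rnf40 was at 1.38, 1.18 and 1.34 times the level of Rnf20 in Rnf40+/+ libraries and at 0.369, 0.426 and 0.407 times in Rnf40-/- libraries. The ratio thus turned from above 1 to below 1 in each case, although with the longest transcripts it was below 1 in both genotypes. On the log2 scale it fell by 1.70, a difference that does not depend on length, from 0.38 ± 0.12 to −1.32 ± 0.11 (SD, n = 3 each; two-sided exact permutation test p = 0.1, the smallest that 3 against 3 libraries allow). The difference ranged from −1.77 to −1.64 when each library was left out in turn.

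Ube2a and Ube2b kept nearly the same ratio in both genotypes. Ube2a stood at 0.372, 0.368 and 0.320 of the level per kb of Ube2b in Rnf40+/+ and at 0.381, 0.375 and 0.379 in Rnf40-/- libraries. These values did not overlap, but the gap between the nearest libraries of each genotype was small. The log2 ratio was −1.50 ± 0.12 in Rnf40+/+ and −1.40 ± 0.012 in Rnf40-/- (difference 0.10, n = 3 each, two-sided exact permutation test p = 0.1, again the smallest possible). Most of the difference came from Rnf40+/+ replicate 3, without which it was 0.032.

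**Figure D2:**
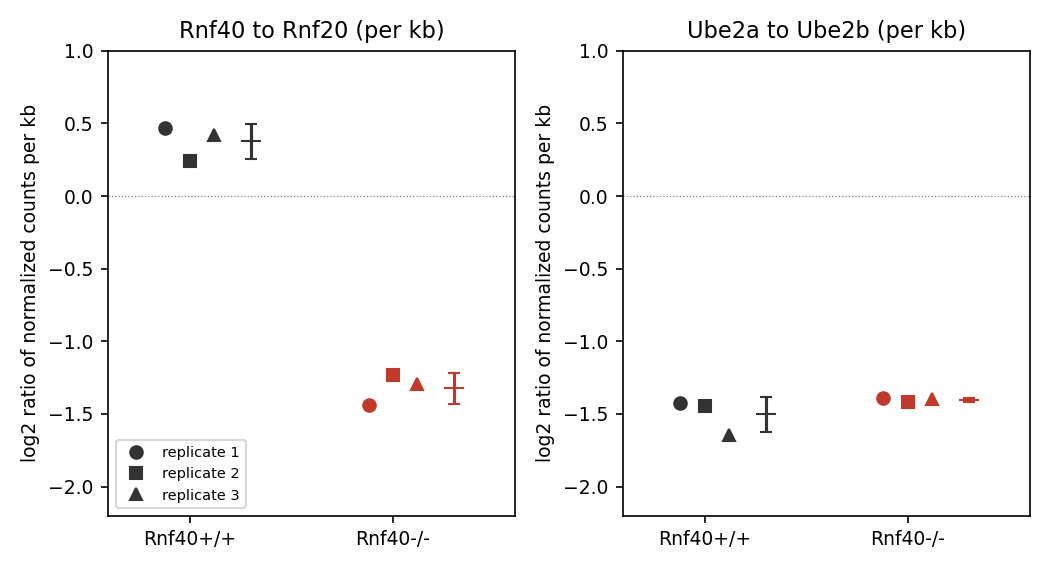
Log2 ratio of the normalized count per kb (vertical axis, combined exons) of Rnf40 to Rnf20 on the left and of Ube2a to Ube2b on the right, in 3 Rnf40+/+ (black) and 3 Rnf40-/- (red) libraries, with mean ± SD. The first ratio drops from 0.38 to −1.32, whereas the means of the second differ by 0.10.

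The surroundings of the members were examined to see whether genes nearby differed too. Only genes whose symbol matched the mm9 annotation, 70.5% of the deposited table, could be placed. Within 100 kb of the start of Rnf40, 5 of these genes start, and none of the 4 that could be tested passed. The closest, Gm166, starts on the other strand so that the 2 genes share an intervening segment of 102 bases. Ube2a has a similar partner, C330007P06Rik, across 246 bases. Both segments are printed because the changes of a member and its neighbour are set side by side across them. They are given on the plus strand of mm9, with each CG dinucleotide in capitals.

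Rnf40 and Gm166 (chr7:134732110-134732211): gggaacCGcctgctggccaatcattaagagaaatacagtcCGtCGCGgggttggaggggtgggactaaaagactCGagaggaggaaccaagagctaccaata

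Ube2a and C330007P06Rik (chrX:34414107-34414352): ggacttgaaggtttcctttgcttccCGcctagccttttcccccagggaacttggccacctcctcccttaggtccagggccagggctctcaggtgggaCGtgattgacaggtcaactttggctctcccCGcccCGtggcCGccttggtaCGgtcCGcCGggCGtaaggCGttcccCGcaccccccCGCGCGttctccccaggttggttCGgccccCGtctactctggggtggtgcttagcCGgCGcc

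The segment at Rnf40 has a GC content of 53.9% and 5 CG dinucleotides, or 4.9 per 100 bases. That at Ube2a has a GC content of 66.7% and 18 CG dinucleotides, or 7.32 per 100 bases. In the 250 bases before 32851 gene starts of RefSeq (GRCm38.p6), the median was 2.4 per 100 bases and 92.1% held at least 1. These windows have another length and need not lie between neighbouring starts, so they give only a rough background.

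Gm166 had normalized counts of 182, 222 and 188 in Rnf40+/+ and of 163, 184 and 187 in Rnf40-/- libraries. These overlapped, while Rnf40 on the other side of the 102 bases lost most of its reads. The log2 fold change of Gm166 was −0.15 (95% interval −0.43 to 0.14, limma adjusted p = 0.387). The values of the other tested genes around Rnf40 were −0.15 for Phkg2, which encodes a subunit of phosphorylase kinase, −0.05 for the zinc finger gene Zfp629 and 0.0037 for Srcap, a chromatin remodeler, with limma adjusted p-values of 0.230, 0.658 and 0.990.

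C330007P06Rik, in contrast, was measured at 1458, 1452 and 1188 normalized counts in Rnf40+/+ and at 970, 983 and 939 in Rnf40-/- libraries. It was lower in all Rnf40-/- libraries, where Ube2a was higher. Its log2 fold change was −0.50 (SE 0.09, 95% interval −0.68 to −0.31, limma adjusted p = 0.000559), against 0.32 for Ube2a. Also near Ube2a, Slc25a5, an ADP/ATP carrier of mitochondria, was lower (log2 fold change −0.36, limma adjusted p = 0.000987) and Nkrf, a repressor of NF-kappaB targets, did not pass (0.21, limma adjusted p = 0.198). Around Ube2b, Ppp2ca, the catalytic subunit of protein phosphatase 2A, rose with a log2 fold change of 0.38 (limma adjusted p = 0.000406), Cdkn2aipnl fell with −0.55 (limma adjusted p = 0.00296) and the kinase gene Cdkl3, which starts 3.46 kb away, stood at 0.15 (limma adjusted p = 0.545).

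Around Rnf20 the only gene tested was 2810432L12Rik, at −0.50 (limma adjusted p = 0.0489). Its groups overlapped, its call was lost under 9 of 16 alternatives, and without Rnf40+/+ replicate 3 its log2 fold change was −0.33. No other gene of the deposited table that could be placed in the annotation starts within 100 kb of the start of Wac. In all, 1 of the 11 neighbours tested was higher and 4 were lower, beside 23.3% and 24.1% of all genes.

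**Figure D3:**
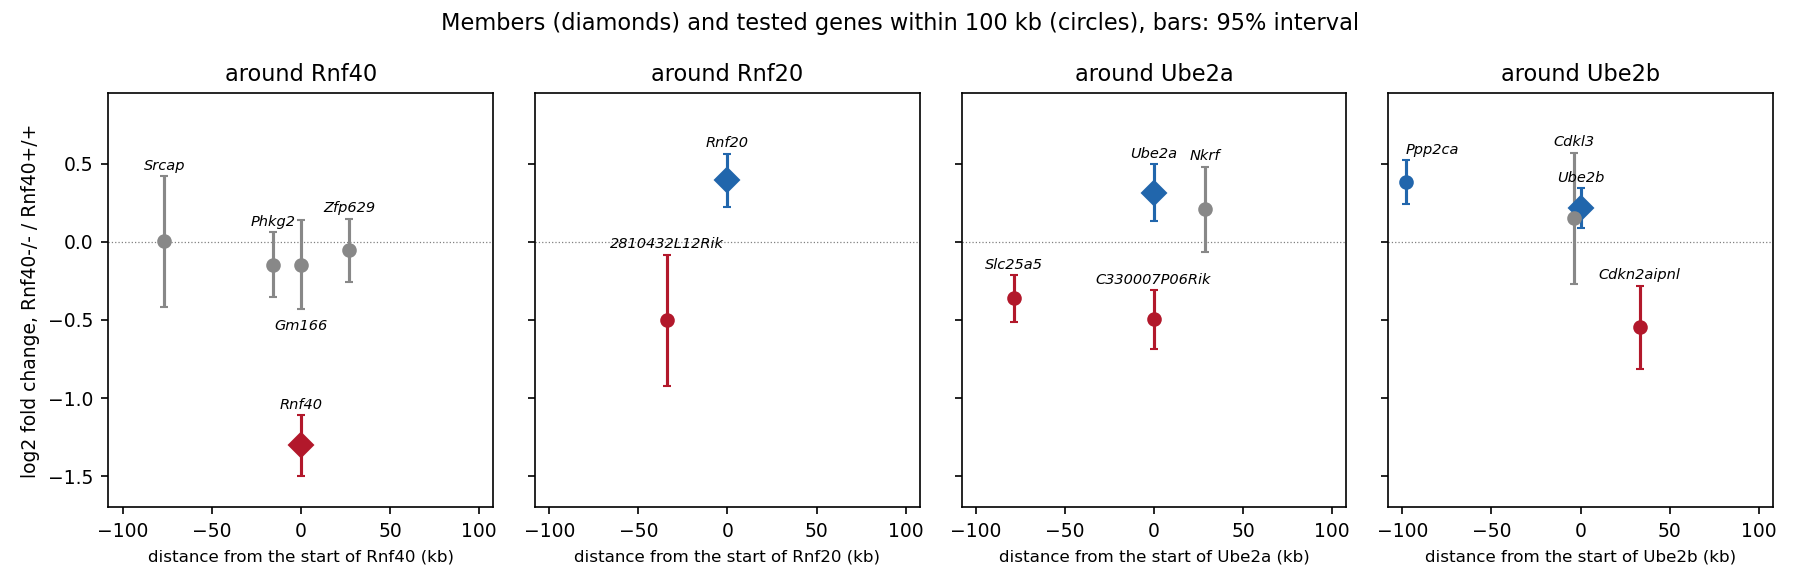
Log2 fold change in Rnf40-/- against Rnf40+/+ MEFs (vertical axis, bars for the 95% interval) by distance in kb from the start of the member (horizontal axis) for Rnf40, Rnf20, Ube2a and Ube2b (diamonds) and tested genes within 100 kb (circles). Genes in blue were higher and genes in red lower at an adjusted p under 0.05, and none of the 4 genes around Rnf40 passed.

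The factors that act with the ligase were examined as lists of genes, each read beside the 47.4% of all genes tested that passed and their median log2 fold change of −0.0035. The PAF1 complex recruits the ligase, and P-TEFb, the kinase CDK9 with a cyclin T, phosphorylates RNA polymerase II. Of these 9 genes 2 were higher, 1 was lower and the median log2 fold change was 0.05. Rtf1, whose product stimulates H2B ubiquitination by direct contact with the E2, was measured at 998, 992 and 899 normalized counts in Rnf40+/+ and at 1308, 1361 and 1311 in Rnf40-/- libraries. Its groups did not overlap, and the log2 fold change was 0.46 (SE 0.07, limma adjusted p = 0.000231), close to the 0.39 of Rnf20. Ccnt1, which encodes cyclin T1, rose with a log2 fold change of 0.48 (limma adjusted p = 0.00536), and Wdr61, a subunit that the PAF1 complex shares with the SKI complex, fell with −0.53 (limma adjusted p = 2.96e-05). Paf1, Ctr9, Cdc73, Leo1, Cdk9 and Ccnt2 had values between −0.07 and 0.19 and did not pass.

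Among the enzymes that remove the mark and their adaptors, 10 of 12 genes could be tested, of which 3 were higher and 2 lower, with a median log2 fold change of 0.10. Usp22, the protease of the SAGA complex, was measured at 2732, 2810 and 2542 normalized counts in Rnf40+/+ and at 3383, 3338 and 3098 in Rnf40-/- libraries. It was higher in each Rnf40-/- library, with a log2 fold change of 0.28 (limma adjusted p = 0.00437). Of its SAGA partners, Atxn7 did not pass (log2 fold change −0.02, limma adjusted p = 0.860), whereas Atxn7l3 fell from 1892 ± 193 to 1260 ± 56.4 (−0.58, limma adjusted p = 0.000108), and Eny2 from 1139 ± 199 to 830 ± 29.1 (−0.44, limma adjusted p = 0.00458). Usp7 rose from 2071 ± 105 to 3114 ± 168 (SD, n = 3 each), the largest rise of this list at 0.59 (limma adjusted p = 2.62e-05), and Usp12 rose with 0.58 (limma adjusted p = 4.57e-05). Usp51 and Usp44 had too few reads to be tested.

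For the methyltransferases that depend on H2Bub1 and for the histone chaperone FACT, 5 of 11 genes were higher and 5 lower, with a median log2 fold change of −0.23 that was −0.096 without Rnf40+/+ replicate 1. Wdr5, a scaffold of the SET1 and MLL complexes, was at 891 ± 38.3 in Rnf40+/+ and at 1208 ± 17.8 in Rnf40-/- MEFs (0.44, limma adjusted p = 0.000273). Setd1a, Wdr82, Rbbp5 and Dot1l were the other higher genes, and Cxxc1, Ash2l and Dpy30 of the SET1 complex were lower. The call of Cxxc1 was lost under 8 of 16 alternatives, that of Wdr82 under 5 and that of Dot1l under 1, without Rnf40-/- replicate 1. Both FACT subunits fell, Ssrp1 from 3545 ± 55.9 to 2537 ± 157 (−0.48, limma adjusted p = 8.44e-05) and Supt16h from 1713 ± 262 to 1248 ± 63.7 (−0.45, limma adjusted p = 0.00268).

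UBE2A and UBE2B also serve other ligases. Rad18, which directs them to PCNA at stalled replication forks, was at 236, 291 and 228 normalized counts in Rnf40+/+ and at 92.8, 111 and 114 in Rnf40-/- libraries. The Rnf40-/- values were well below the others, with a log2 fold change of −1.24 (SE 0.15, limma adjusted p = 3.24e-05), similar in size to that of Rnf40. Ubr1 and Ubr2, ligases of the N-degron pathway, had log2 fold changes of −0.07 and −0.02 and did not pass (limma adjusted p = 0.518 and 0.808). Of the genes for ubiquitin and its E1 enzymes, 2 of 6 were lower and none higher. Uba6 fell from 886 ± 85.2 to 526 ± 48.2 (−0.75, limma adjusted p = 6.39e-05) and the ubiquitin fusion gene Rps27a from 9336 ± 1108 to 7072 ± 449 (−0.40, limma adjusted p = 0.0025), whereas Uba1, the main E1, stood at −0.14 (limma adjusted p = 0.135) and Ubb at −0.02 (limma adjusted p = 0.875).

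Ube2a and Ube2b were then set beside the other E2 genes, of which 33 of 34 could be tested. Of these 9 were higher and 9 lower, and the median log2 fold change was 0.04, or 0.016 without Rnf40-/- replicate 3. Birc6, a giant E2 and E3 fusion that inhibits apoptosis, had the largest rise, from 2266 ± 156 to 4280 ± 196 (0.92, limma adjusted p = 9.35e-07), so that the rises of Ube2a and Ube2b were well below the top of the family. Ube2c, the E2 of the anaphase-promoting complex, had the largest fall, from 471 ± 64.3 to 53.1 ± 4.23 (−3.12, limma adjusted p = 2.72e-08). The dividing-cell markers fell along with it, with a median log2 fold change of −2.97. Per kb of combined exons, Ube2b ranked 4 in Rnf40+/+ and 2 in Rnf40-/- MEFs, just above Ube2d2, and Ube2a ranked 16 and 14, among the 34 tested E2 genes that have an annotated length, Ube2a and Ube2b included and Ube2d2b and Ube2u left out.

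**Figure D4:**
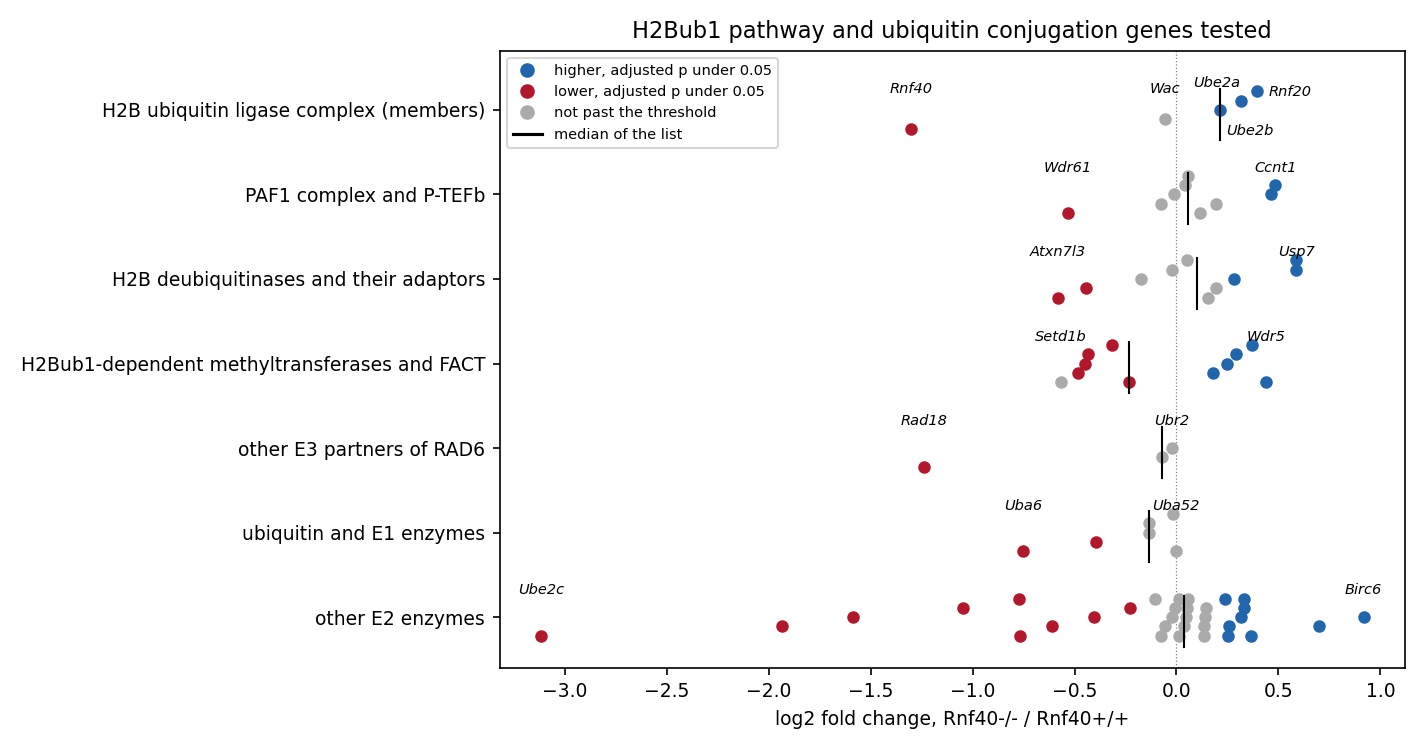
Log2 fold change in Rnf40-/- against Rnf40+/+ MEFs (horizontal axis) of each tested gene of the H2Bub1 pathway and of ubiquitin conjugation, 1 gene list per line on the vertical axis, with the median of the list as a bar. Genes in blue were higher and genes in red lower at an adjusted p under 0.05. The members span −1.30 to 0.39, and the widest range, −3.12 to 0.92, belongs to the other E2 enzymes.

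Finally, the genes whose pattern over the 6 libraries was most like that of each member were listed, by the root mean square difference of log2 values centred on their mean, among 15498 genes with a mean normalized count above 15. For the members that passed the test, the measure is ruled mainly by the difference between the genotypes, and for Wac by the scatter between libraries. It says nothing of a shared control. For Rnf40 these were Mettl10 (0.0348), Mycl1 (0.0492) and Ckap2 (0.0631). Mettl10, a methyltransferase gene, was at 380, 372 and 329 normalized counts in Rnf40+/+ and at 137, 157 and 142 in Rnf40-/- libraries, a fall as large as that of Rnf40. The nearest genes to Rnf20 were Tnfrsf22 (0.0233), Iqgap1 (0.0242) and Ctnna1 (0.0279), the last of which encodes alpha-catenin. Those nearest to Ube2a were Tlk1 (0.0150), Prkaa1 (0.0159), a catalytic subunit of AMPK, and Pigp (0.0281). Ube2b was closest to Hlcs (0.0145), the ubiquitin ligase gene Ube4a (0.0157) and Drosha (0.0178), and Wac to Ivd (0.0233), the methyltransferase gene Whsc1 (0.0321) and Nova2 (0.0346). None of these genes belongs to the lists above.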

How the data were processed

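Total RNA of 3 Rnf40+/+ and 3 Rnf40-/- MEF samples was sequenced from strand-specific libraries. The authors mapped reads to the mouse transcriptome (mm9), and the submitters' processing notes name Bowtie2 (version 2.1.0) and DESeq (version 1.14.0). The counting tool is not given in the sources used here. The deposited values are a signal per gene, namely counts that the authors divided by 1 DESeq size factor per library. Dividing each value by that of a single read gave whole reads for 100% of positive values (tolerance 0.01 reads), 17053436 to 26344170 reads per library. With these depths 3 reads correspond to a normalized count of 2.40 to 3.58, which covers counting error only.

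Genotypes were compared with limma (version 3.58.1; trend, genotype as the only term) on log2(normalized count + 1), with Benjamini-Hochberg adjustment over the 16378 genes that passed filterByExpr of edgeR (version 4.0.16) on the recovered reads. Fold changes are on this log2 scale, which understates changes of low genes. Means are given with the SD. Ratios were compared by two-sided exact permutation tests. Levels per kb used the exons of the GENCODE annotation of mm9, and 70.5% of genes matched it by symbol. Alternatives were DESeq2 (version 1.42.0) size factors and its Wald test, TMM, upper quartile, the edgeR quasi-likelihood test, no filter, at least 10 reads in every library, pseudocounts of 0.1 and 10, a replicate block, the longest transcript as length and each library left out in turn. The tests were tried on simulated data. Analyses ran in R (version 4.3.3) and Python (version 3.11.15).

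The members and gene lists were chosen with earlier results of these data known. Named are all members, the tested genes within 100 kb of their starts, in each list the genes with the largest called rise and fall and genes described for their role, markers of cell types and, for each member, the 3 genes with the most similar profile. The lists came from general knowledge.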

Additional observations from a re-analysis of the deposited data

How the results depend on the processing

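Rnf40, Rnf20 and Ube2a kept their direction and their side of the threshold under all 16 alternatives, with log2 fold changes of −1.36 to −1.24, 0.31 to 0.47 and 0.22 to 0.36. The highest adjusted p of limma, edgeR or DESeq2 was 2.44e-05 for Rnf40, 0.0101 for Rnf20 and 0.0386 for Ube2a. Ube2b ranged from 0.19 to 0.23 when single libraries were left out and passed except without Rnf40-/- replicate 1, and Wac, which never passed, ranged from −0.12 to 0.012. Leaving out a library gave medians of 0.031 to 0.083 for the PAF1 and P-TEFb genes, of −0.27 to −0.096 for the methyltransferase and FACT genes and of 0.016 to 0.046 for the other E2 genes. Upper-quartile normalization, which moved the median of all genes to 0.04, gave 0.10 for the PAF1 and P-TEFb genes and 0.085 for the other E2 genes, and 4299 higher and 3536 lower genes in all. With the longest transcript as length the mean log2 ratio in Rnf40+/+ was −0.38 for Rnf40 to Rnf20 and −1.75 for Ube2a to Ube2b, and the levels per kb were 374 for Rnf20, 2040 for Ube2b and 399 for Wac. Markers of cell types were not followed under the alternatives. Of 98 other named genes, these markers left out, 13 changed side of the threshold under at least 1 alternative and none changed direction while called: Leo1, Wdr82, Cxxc1, Dot1l, Uba1, Ube2d2, Ube2e2, Ube2e3, Ube2l3, Ube2r2, 2810432L12Rik, Ube4a and Drosha. Same-numbered libraries of the genotypes had correlations of their deviations of 0.0118, 0.0174 and 0.0212, and other pairs ranged from −0.0531 to 0.0371. These values cannot decide whether the replicate numbers pair the samples. With a replicate block 4021 genes were higher and 4196 lower, against 3809 and 3955 without it. The log2 fold changes were then −1.30 for Rnf40, 0.39 for Rnf20, 0.32 for Ube2a, 0.21 for Ube2b and −0.06 for Wac, and the same 4 members passed. With 3 libraries a group, the permutation tests of the ratios cannot pass a threshold of 0.05.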
